A study of Mus musculus with 6 samples.

Results

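Rab GTPases are small GTP-binding proteins of membrane traffic, and their messages were compared between 2 steps of a ribosome purification in mouse embryonic stem cells. The genes were taken by symbol: Rab, a number, and at most a letter and a further digit. Of the 51912 genes that could be matched to the files, 59 had such a symbol. The rule used no measured value. The series sequenced poly(A) RNA from the mouse embryonic stem cell line E14, to learn which messages a resin step of the RAPIDASH ribosome purification enriches or depletes. All cells were grown with leukemia inhibitory factor and given 100 µg/mL cycloheximide, which holds ribosomes on their messages, for 3 minutes before harvest. There were 2 groups of 3 libraries: pellets, which are ribosome-containing material spun through a sucrose cushion, and eluates, which are the same kind of material after binding to and elution from a resin charged with cysteine. No genotype or other treatment differed between them, and all libraries come from 1 cell line.

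A Rab protein cycles between an inactive GDP-bound and an active GTP-bound form, and each is found on its own set of membranes, where the active form recruits the proteins that move, tether or fuse vesicles. Exchange factors load GTP, GTPase-activating proteins end the active state, and GDI proteins extract the inactive form from the membrane. The family arose by repeated gene duplication, so that close paralogs encode proteins of nearly the same size while their messages differ in base composition and in the length of the 3' UTR.

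That property makes the family a comparison at near-fixed coding length. In the most abundant coding transcript of each gene, the coding sequence was 564 to 2922 nt long with a median of 648 nt, and 51 of the 59 genes lay between 570 and 720 nt. Over the 47 genes that could be tested, by contrast, transcript GC ran from 39.5% to 59.2%, GC at the third codon position from 31.5% to 81.0%, and 3' UTR length from 35 to 4055 nt. The 35 nt are those of Rab22a, most of whose estimated counts fell on another isoform with a 3' UTR of 6224 nt. The codons of the P-loop, the loop of the G domain that binds the phosphates of the nucleotide, show how paralogs write the same stretch of protein with different bases. They are given for the paralog pairs with the largest and the smallest GC difference and for Rab34, Rab5a and Rab8b, the highest and the 2 lowest changes among genes with a mean of at least 10 CPM. Capitals mark a G or C at the third position of a codon.
Rab1a: ggCgattctggGgttggaaaGtcC
Rab1b: ggtgaCtcCggCgtGggCaaGtcG
Rab2a: ggCgaCacaggtgttggtaaatcG
Rab2b: ggagaCacaggtgtGggGaaGtca
Rab34: ggagaCctatctgtGggGaaGacC
Rab5a: ggagaGtctgctgttggCaaatca
Rab8b: ggCgaCtcCggCgttggCaaGacC
The sequences are read 5′ to 3′ from the GENCODE transcripts (build GRCm38). The Rab1a and Rab1b stretches differ at 7 of 24 bases, all 7 at the third codon position, and encode the same amino acids. Those of Rab2a and Rab2b differ at 5 bases, again all at the third position. Codons ending in G or C number 4 of 8 in Rab1a and 7 of 8 in Rab1b, 2 of 8 in Rab5a and 7 of 8 in Rab8b.

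The libraries held 7.84e+06 to 1.16e+07 estimated counts. Nothing in the labels says that libraries of a group were grown as separate cultures. The p-values therefore speak of the spread between these libraries, which may be technical. Pellet 1 stood apart from the other pellets: chi-square per gene against pellets 2 and 3 was 18.0 and 14.1, against 3.55 between those 2 and 3.12 to 4.01 among the eluates. All 9 embryonic stem cell markers checked were above 1 CPM (the count of a gene as a share of its library's scaled total) in every library. Their summed level was 9380 to 9700 CPM in pellets and 11600 to 12000 CPM in eluates. The markers did not move together: 4 were higher and 2 lower in eluates (edgeR, adjusted p under 0.05), beside 24.5% and 28.2% of all genes tested. Their median log2 fold change was -0.055. The 10 markers of fibroblasts and of differentiated cells summed to 25.6 to 27.9 CPM in pellets and 33.5 to 37.2 CPM in eluates, with Postn at 0 in all libraries. Of the 5 that could be tested, 2 were called higher and 0 lower (edgeR, adjusted p under 0.05). Thy1, a fibroblast marker, rose from a mean of 10.6 to 17.3 CPM, and Sox17, an endoderm marker, from 1.17 to 2.40 CPM. The neural marker Pax6, at means of 8.03 CPM in pellets and 6.76 CPM in eluates, was not called. The part of these markers in the results below was not tested.

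Rab messages moved little as a family and moved apart from each other. Of the 47 tested, 12 were higher in eluates and 7 lower at an adjusted p under 0.05 (edgeR quasi-likelihood test with Benjamini-Hochberg adjustment over all genes tested), and 28 were not called. The share called, 40.4%, is set against 52.7% of all 13231 genes tested, of which 24.5% were called higher and 28.2% lower. A change is given on the log2 scale throughout, as eluates relative to pellets. Their median over the tested Rab genes was 0.045, beside 0.0035 over all genes, and no called Rab gene changed by 1 or more. The 10th and 90th percentiles were -0.29 and 0.58 for Rab genes and -0.96 and 0.58 for all genes tested. Without pellet 1, 15 Rab genes were called higher and 9 lower, and without eluate 1 the lower calls fell to 4. In 13 Rab genes every eluate lay above every pellet and in 8 every eluate lay below, and among all genes tested 60.3% had such groups without overlap (29.1% with higher and 31.2% with lower eluates).

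**Figure D1:**
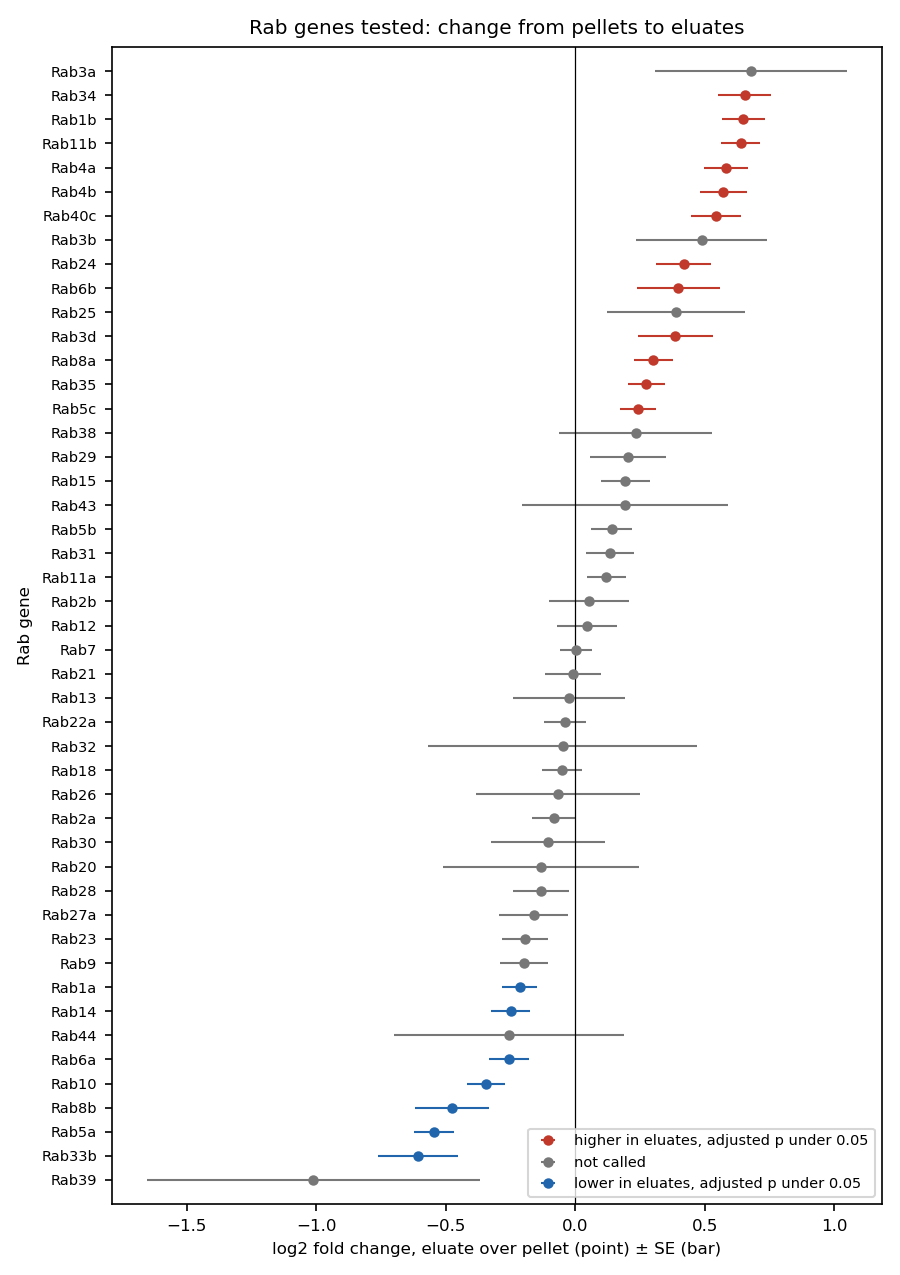
Log2 fold change of eluate over pellet (x axis) for the 47 tested Rab genes, ordered by size, with bars of 1 SE from edgeR and 3 libraries per group. Red points are the 12 genes called higher, blue points the 7 called lower and grey points the 28 not called, which include the widest bars, those of the least abundant genes.

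Summed over all 59 genes, Rab messages made up 2479, 2566 and 2514 CPM in the pellets (libraries 1 to 3 in order, here and below) and 2579, 2610 and 2716 CPM in the eluates. The eluates were all above the pellets by a small margin, with means of 2635 ± 71.7 (SD, n = 3) and 2520 ± 43.8 (SD, n = 3). A two-sided exact permutation test gave p = 0.1, the smallest that 3 against 3 allows. On the TPM scale, which corrects for transcript length, the sums overlapped (exact permutation p = 0.8). Because these values are shares of a library, less of a message cannot be told apart from more of the others, nor fewer cells that hold it from less of it per cell.

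The other 12 Rab genes were too low to test, at 1.46 CPM or less in every library. They include genes of specialised secretory, immune and neural cells, such as Rab27b and Rab7b, which were at 0 counts in all 6 libraries. A count of 0 allows up to 3 counts, which is 0.262 to 0.401 CPM depending on the library.

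Among Rab genes of the endoplasmic reticulum and Golgi, 2 of 10 rose and 3 fell. This count and those of the groups below are to be read against 24.5% higher and 28.2% lower among all genes tested. Rab1a and Rab1b changed in opposite directions, as did Rab6a and Rab6b, though the call of Rab6b was weak. Rab1a and Rab1b both direct transport from the endoplasmic reticulum to the Golgi. Rab1a, on chromosome 11, was at 320.4, 357.9 and 357.5 CPM in the pellets and at 283.0, 301.6 and 308.5 CPM in the eluates. Every eluate was below every pellet, and the change was -0.21 ± 0.068 (SE; adjusted p = 0.0142, edgeR). The call was lost without pellet 2, pellet 3 or eluate 1 (adjusted p = 0.0588, 0.0653 and 0.088, edgeR). Rab1b, on chromosome 19, was at 124.4, 101.1 and 103.4 CPM in the pellets and at 173.4, 165.2 and 177.0 CPM in the eluates. All eluates were above all pellets, pellet 1 was the highest pellet, and the change was 0.65 ± 0.082 (adjusted p = 8.96e-06, edgeR).

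The pair of retrograde Golgi traffic, Rab6a and Rab6b, divided in the same way. Rab6a was at 105.4, 110.2 and 106.1 CPM in the pellets and 97.7, 83.5 and 88.4 CPM in the eluates, without overlap (-0.26 ± 0.077, adjusted p = 0.0107, edgeR). It was no longer called without eluate 2 (adjusted p = 0.0837, edgeR). The much less abundant Rab6b was at 10.5, 7.59 and 9.09 CPM in the pellets and 11.5, 10.9 and 13.3 CPM in the eluates, also without overlap (0.40 ± 0.16, adjusted p = 0.0482, edgeR). Its call is weak: it was kept only without pellet 1 among the 6 fits that each left out a library (adjusted p 0.0562 to 0.205 in the other 5), and DESeq2 did not make it (adjusted p = 0.13).

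Rab2a and Rab2b, which act between the Golgi and the endoplasmic reticulum, were not called, at -0.083 ± 0.084 and 0.053 ± 0.15. Rab18, a protein of the endoplasmic reticulum and lipid droplets and the fourth most abundant Rab by TPM, was at 109.2, 129.4 and 121.3 CPM in the pellets and 109.9, 121.1 and 116.3 CPM in the eluates. Its groups overlapped and it was not called (-0.053 ± 0.078, adjusted p = 0.596, edgeR). The lowest called change in the family was that of Rab33b, a Golgi and autophagy protein. It was at 12.1, 10.4 and 13.5 CPM in the pellets and 7.84, 7.91 and 7.81 CPM in the eluates, with no overlap (-0.61 ± 0.15, adjusted p = 0.0035, edgeR). Its mean level is just under the 10 CPM required for naming, so it was chosen after its values were seen, as were Rab3a, Rab3d, Rab22a, Rab24, Rab35 and Rab39.

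Of 8 Rab genes of early endosomes, 3 rose and 1 fell, and the 3 genes of Rab5, the GTPase of early endosome fusion, included a fall, a rise and a change that was not called. Rab5a was at 96.1, 108.3 and 108.6 CPM in the pellets and 72.7, 72.8 and 68.7 CPM in the eluates. The lowest pellet was well above the highest eluate, and the change was -0.55 ± 0.077 (adjusted p = 2.47e-05, edgeR). Rab5b, at 77.5, 66.4 and 72.0 CPM in the pellets and 77.0, 78.7 and 82.3 CPM in the eluates, overlapped and was not called (0.14 ± 0.080, adjusted p = 0.154), though it was called without pellet 1 (0.20, adjusted p = 0.0245, edgeR). Rab5c was at 119.3, 109.4 and 116.9 CPM in the pellets and 135.2, 131.9 and 141.3 CPM in the eluates, all eluates being higher (0.24 ± 0.070, adjusted p = 0.00845, edgeR). In the eluates Rab5a thus held fewer counts than Rab5b, while in all 3 pellets it held more.

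Rab4a and Rab4b, which serve fast recycling from early endosomes, rose together. Rab4a went from 45.8, 43.7 and 39.3 CPM in the pellets to 64.3, 65.5 and 63.4 CPM in the eluates (0.58 ± 0.085, adjusted p = 3.32e-05, edgeR). Rab4b was at 48.0, 41.6 and 40.0 CPM in the pellets and 65.0, 60.8 and 66.9 CPM in the eluates (0.57 ± 0.090, adjusted p = 7.34e-05, edgeR). Neither gene's groups overlapped. Of Rab4b's 31-base subsequences, 82.3% also occur in transcripts of another gene model, Gm21983, so its reads cannot be assigned with certainty.

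Recycling endosome genes included 2 that rose and 1 that fell of 6 tested. Rab11b was at 82.1, 77.7 and 74.4 CPM in the pellets and 117.5, 117.0 and 130.2 CPM in the eluates, without overlap (0.64 ± 0.076, adjusted p = 5.16e-06, edgeR). Its paralog Rab11a, the best known Rab of recycling endosomes, was at 64.5, 69.6 and 68.5 CPM in the pellets and 72.9, 74.6 and 72.8 CPM in the eluates. The Rab11a groups did not overlap either, but the change of 0.12 ± 0.075 was not called (adjusted p = 0.195, edgeR). Rab14, of endosome and Golgi traffic, was at 93.5, 103.7 and 105.7 CPM in the pellets and 81.1, 85.9 and 87.7 CPM in the eluates, all eluates being lower (-0.25 ± 0.076, adjusted p = 0.0115, edgeR). That call was lost without pellet 3 or eluate 1 (adjusted p = 0.0575 and 0.0638, edgeR). Rab35, which recycles cargo to the plasma membrane, rose by 0.27 ± 0.072 (adjusted p = 0.00443, edgeR).

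Of 6 tested genes of late endosomes and lysosomes, 1 was called, beside 52.7% of all genes tested, and the difference was not tested. Another was lower at an unadjusted p under 0.05 (edgeR). The group includes genes with means of only 1.17 and 2.54 CPM, whose changes had SEs of 0.52 and 0.30. Rab7, the GTPase of late endosomes and the most abundant Rab by TPM, was at 295.9, 301.8 and 288.0 CPM in the pellets and 286.1, 291.8 and 309.7 CPM in the eluates. The groups overlapped fully and the change was 0.0027 ± 0.063 (adjusted p = 0.975, edgeR). Of its 31-base subsequences, 15.9% also occur in other genes, 14.1% in the pseudogene Rab7-ps1. Rab24, linked to autophagy, was the called gene of the group (0.42 ± 0.11, adjusted p = 0.00365, edgeR).

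In the exocytosis group 2 of 9 rose and 2 fell, and the paralogs Rab8a and Rab8b, which carry cargo to the plasma membrane and the cilium, moved in opposite directions. Rab8a was at 90.4, 96.8 and 86.8 CPM in the pellets and 111.3, 106.8 and 119.6 CPM in the eluates (0.30 ± 0.075, adjusted p = 0.00337, edgeR). Rab8b was at 17.1, 23.4 and 21.2 CPM in the pellets and 13.1, 16.7 and 14.6 CPM in the eluates (-0.48 ± 0.14, adjusted p = 0.0106, edgeR). Neither overlapped, although pellet 1 and eluate 2 of Rab8b nearly met, and its call was lost without pellet 2 or eluate 1 (adjusted p = 0.0735 and 0.0647, edgeR). Rab10, also of transport to the plasma membrane, was at 89.3, 93.4 and 95.3 CPM in the pellets and 72.2, 75.7 and 71.0 CPM in the eluates (-0.34 ± 0.073, adjusted p = 0.000931, edgeR). Its call was kept without any 1 library. Rab3d, of regulated exocytosis, was called higher with overlapping groups (0.39 ± 0.15, adjusted p = 0.036, edgeR), and lost the call without pellet 2, pellet 3, eluate 1 or eluate 3 (adjusted p 0.0879 to 0.173, edgeR) and with DESeq2 (adjusted p = 0.0591). Its relative Rab3a had the highest fitted change, 0.68 ± 0.37, at 0.802 to 3.90 CPM, and was called only without pellet 1 (1.19, adjusted p = 0.00461, edgeR).

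Among the other 8 tested genes, 2 rose and 0 fell (edgeR, with 1 lower at an unadjusted p under 0.05 and 0 with DESeq2). Rab34, known for its part in cilium formation, was at 26.2, 21.9 and 26.1 CPM in the pellets and 37.0, 40.8 and 38.4 CPM in the eluates (0.65 ± 0.10, adjusted p = 7.39e-05, edgeR). Rab40c, whose protein carries a SOCS box and works with ubiquitin ligases, was at 46.4, 37.5 and 40.2 CPM in the pellets and 56.4, 58.6 and 66.0 CPM in the eluates (0.54 ± 0.098, adjusted p = 0.000234, edgeR). In both genes every eluate was above every pellet. Rab39 had the lowest fitted change, -1.01 ± 0.64, from 0.350 to 2.27 CPM, and was called only without pellet 1 (-1.48, adjusted p = 0.00611, edgeR).

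**Figure D2:**
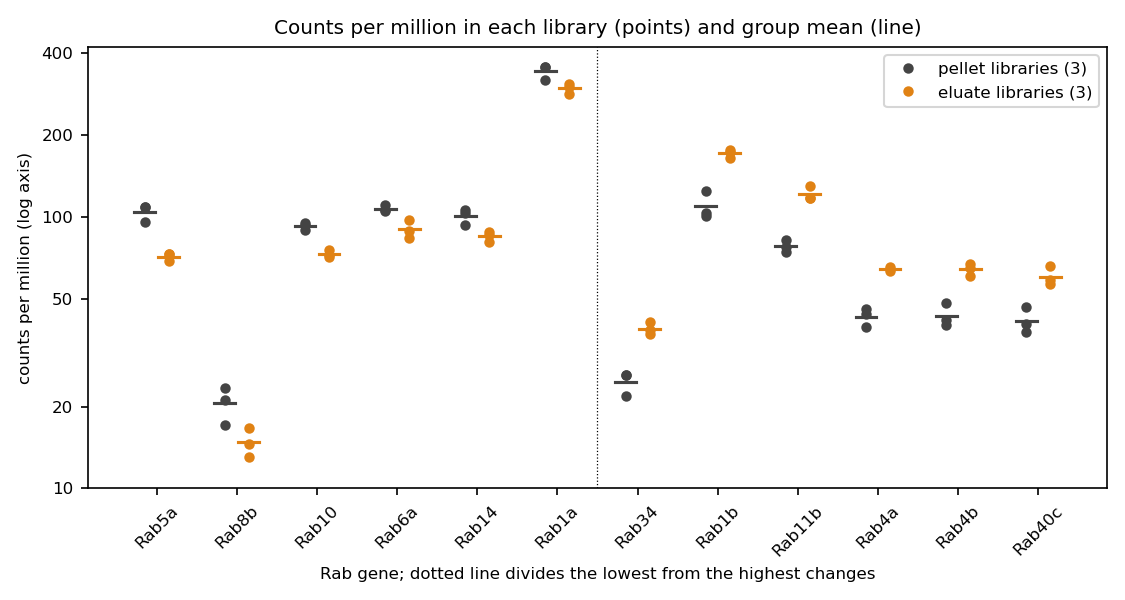
CPM (log axis) of the 6 Rab genes with the lowest and the 6 with the highest changes among those with a mean of at least 10 CPM, with a point per library and a line at the group mean of 3 libraries. No gene's pellets and eluates overlap, and the 6 genes on the left fall while the 6 on the right rise.

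The called genes divided by base composition. The 7 lower genes had transcript GC of 40.6% to 45.7% and the 12 higher genes 49.4% to 59.2%, with no overlap. GC of the 3' UTR alone was 34.1% to 39.9% in the lower genes and 48.5% to 59.9% in the higher ones. Rab8a had the lowest GC of the higher genes, so the 24 tested Rab genes below it hold 0 higher edgeR calls by construction. At an unadjusted p under 0.05 and with DESeq2, on the same counts, 0 of these 24 were higher too. When the tested genes were ordered by GC and divided into 3 groups, the 16 with the lowest GC held 0 higher and 7 lower calls, the next 16 held 5 and 0, and the 15 with the highest GC held 7 and 0 (edgeR). At an unadjusted p under 0.05 these were 0 and 9, 5 and 0, and 7 and 0, and with DESeq2 0 and 7, 3 and 0, and 7 and 0. The median changes of these groups were -0.21, 0.17 and 0.39.

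The length of the 3' UTR separated the genes less. The lower genes had 3' UTRs of 1251 to 4055 nt and the higher genes 265 to 4030 nt, so that the ranges overlapped. Rab8b and Rab6b show this: their 3' UTRs measured 4055 and 4030 nt, the longest among the most abundant transcripts of the tested genes, and Rab8b fell while Rab6b rose. Their transcript GC was 40.6% and 51.4%. Divided into 3 groups by 3' UTR length, from short to long, the tested genes had median changes of 0.089, 0.049 and -0.0080, with 4, 5 and 3 higher calls and 0, 3 and 4 lower calls (edgeR). Of the shortest group, 1 gene was lower at an unadjusted p under 0.05 and 0 with DESeq2. That group includes Rab22a and Rab18, placed there by 3' UTRs of 35 and 554 nt. Most of their estimated counts fell on isoforms with 3' UTRs of 6224 and 5774 nt.

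Rank correlations describe the same pattern. They run across genes, which share the same 6 libraries and are not independent replicates, so no p is given. Over the 47 tested genes Spearman's rho between the change and transcript GC was 0.66, with coding GC 0.51, with GC at the third codon position 0.59 and with 3' UTR GC 0.76 (46 genes with a 3' UTR GC value). It was -0.27 with 3' UTR length and -0.052 with coding length. GC and 3' UTR length are themselves related in these genes (rho -0.43). With 3' UTR length held, the partial rho of GC was 0.62, and with GC held that of 3' UTR length was 0.012. Transcript GC includes the 3' UTR: with 3' UTR GC held instead, 3' UTR length had -0.19, and -0.43 in the 33 genes with a value and a mean of at least 10 CPM. With coding GC held, 3' UTR GC kept a partial rho of 0.66, and with 3' UTR GC held, coding GC had -0.13, or 0.23 in those 33 genes. Over all coding genes tested the order of these was the opposite, 0.30 for 3' UTR GC and 0.46 for coding GC (11898 genes).

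The relation with GC was present for each replicate number taken alone, with rho of 0.56, 0.49 and 0.66 for numbers 1 to 3, and was 0.66 without pellet 1. It also appeared between pellets: across the 47 genes, the difference of pellet 1 from pellet 2 and from pellet 3 had rho of 0.43 and 0.41 with GC. Between pellets 2 and 3 it was -0.025. Between eluates it was 0.36 for eluate 1 minus eluate 2, -0.38 for eluate 2 minus eluate 3 and -0.076 for eluate 1 minus eluate 3, so eluate 2 also departed with GC. Pellet 1 lay on the eluate side of the other pellets for some GC-rich Rab messages, as the values of Rab1b show, but not for all. Rab35, at 54.2% GC, was at 85.35, 87.54 and 86.44 CPM in the pellets and 104.0, 99.86 and 109.8 CPM in the eluates, with pellet 1 the lowest. In Rab24 and Rab8a, also called higher, pellet 1 lay between the other pellets.

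Restricting coding length did not weaken the relation. In the 41 tested Rab genes with a coding sequence of 570 to 720 nt, rho was 0.78 with GC, 0.80 with 3' UTR GC and -0.30 with 3' UTR length. In the 896 other coding genes of that length it was 0.72 with GC, 0.56 with 3' UTR GC (861 genes with a value) and -0.33 with 3' UTR length. The Rab genes of that length had a median change of 0.053, with 24.4% called higher and 17.1% lower, whereas the other genes had a median of 0.30, with 46.3% called higher and 9.82% lower. Median GC was 48.7% in the Rab genes and 51.4% in the others, and the median 3' UTR was 1330 and 732 nt. These differences between Rab and other genes were not tested.

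**Figure D3:**
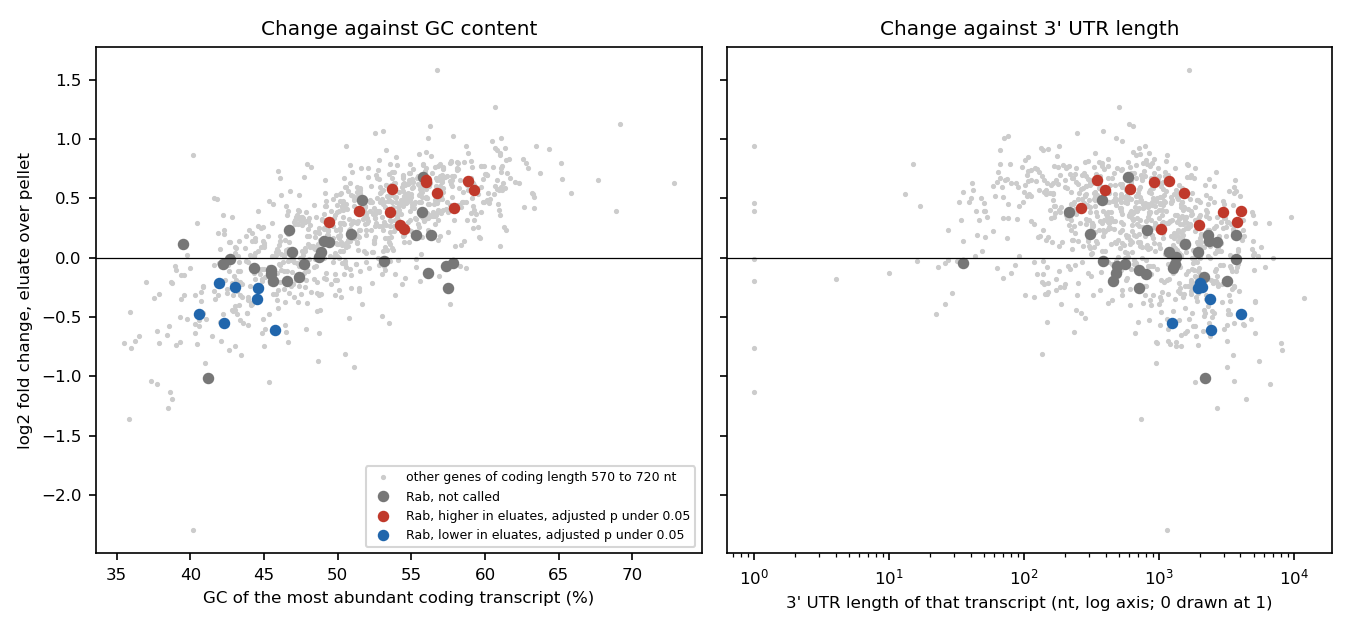
Log2 fold change of eluate over pellet (y axis) against transcript GC (left) and 3' UTR length (right, log axis, lengths of 0 drawn at 1) for the 47 tested Rab genes (large points, red higher, blue lower, grey not called) and 896 other genes with a coding sequence of 570 to 720 nt (small grey points). Rab genes follow the rise with GC on the left (rho 0.66), while on the right red points span 265 to 4030 nt and blue points 1251 to 4055 nt, ranges that overlap.

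Paralogs give the closest comparison, since their coding lengths differ by 69 nt at most. The 9 pairs compared hold 15 genes, and the value tested is the log2 ratio of their counts in each library. In 7 pairs the ratio did not overlap between pellets and eluates. Each of these had the smallest two-sided exact permutation p that 3 against 3 allows, 0.1, or 0.129 after Benjamini-Hochberg adjustment over the 9 pairs, so no pair could reach 0.05.

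The ratio of Rab1b to Rab1a was -1.37, -1.82 and -1.79 in the pellets and -0.71, -0.87 and -0.80 in the eluates. It rose by 0.87, and Rab1b exceeds Rab1a in transcript GC by 16.9 percentage points. The ratio of Rab5c to Rab5a rose by 0.79 (12.2 points more GC) and that of Rab5b to Rab5a by 0.69 (6.82 points more). Rab6b over Rab6a rose by 0.66 (6.84 points more) and Rab11b over Rab11a by 0.52 (16.5 points more). Rab8b over Rab8a fell by 0.77, with a GC difference of -8.80 points, Rab8b having less. The Rab5c to Rab5b ratio rose by 0.099 (5.43 points more).

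The other 2 pairs overlapped. Rab2b over Rab2a differed by 0.13 (exact permutation p = 0.6, n = 3 per group), and these are the paralogs with the smallest GC difference, 2.52 points. Rab4b over Rab4a differed by -0.012 (exact permutation p = 0.9, n = 3 per group) although Rab4b has 5.53 points more GC, and its ratio reversed without pellet 1 (0.019) or eluate 2 (0.040). The Rab2 difference reversed too, without pellet 2 (-0.013) or eluate 1 (-0.0019). In all 7 pairs without overlap the paralog with more GC was favoured in the eluates, while the 2 overlapping pairs changed sign with the libraries left out. By the most abundant transcript of each gene, the paralog with the shorter 3' UTR was favoured in 5 of all 9. The Rab11 pair depends on that choice: its 3' UTRs were 918 nt (Rab11b) and 1550 nt (Rab11a). Averaged over isoforms by their counts, they were 2338 and 1466 nt. The pairs of Rab5 share genes and are not independent of each other. Some pairs hold a gene whose reads may be misassigned, since part of its 31-base subsequences occurs in other genes. This part was 82.3% in Rab4b, 15.7% in Rab5b, 10.9% in Rab11b and 10.75% in Rab2a.

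**Figure D4:**
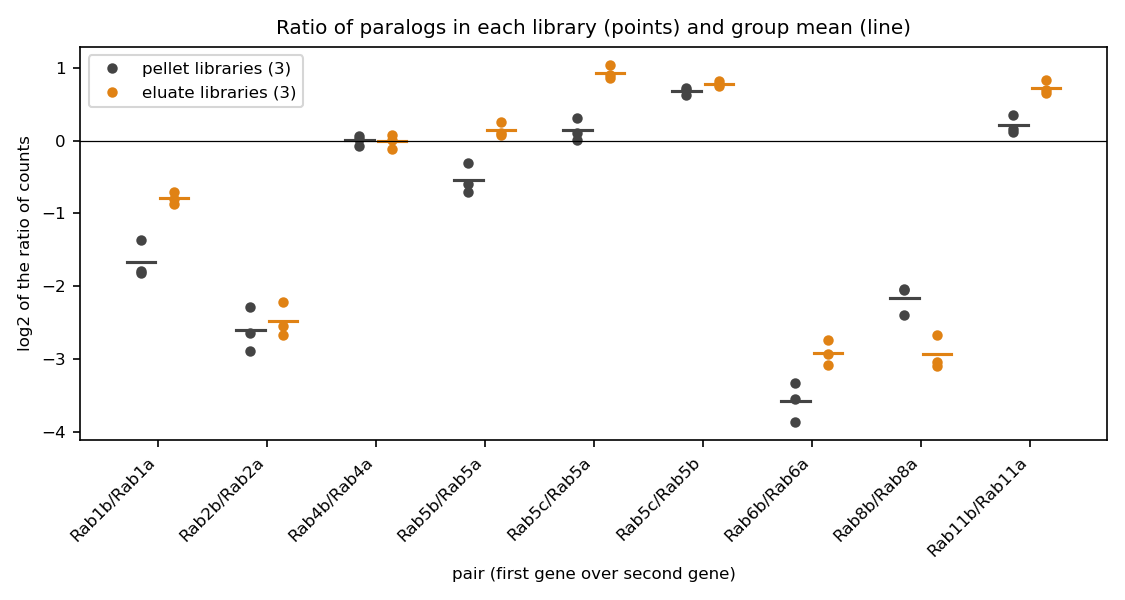
Log2 ratio of the counts of the first to the second paralog (y axis) in each of 9 pairs, with a point per library and a line at the mean of the 3 pellets (dark) and the 3 eluates (orange). The groups are apart in 7 pairs, with the largest shift in Rab1b over Rab1a (0.87), and overlap for Rab2b over Rab2a and Rab4b over Rab4a.

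To set the Rab changes against the composition of all messages, the smooth trend of each library with transcript GC was removed over all genes before the fit. The family then shifted upward: 21 Rab genes were called higher and 1 lower, against 22.1% higher and 18.7% lower among all genes tested. The median change was 0.23, beside 0.017 over all genes. Of the 7 genes lower as fitted, 5 were now called higher, 0 lower (also at an unadjusted p under 0.05, edgeR) and 2 were not called. Of the 12 higher genes, 6 stayed called. Rab1a went from -0.21 to 0.52 ± 0.061 and Rab14 from -0.25 to 0.40 ± 0.067, whereas Rab5a, at 0.16, was not called (adjusted p = 0.0533, edgeR).

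The highest values were then those of AT-rich messages that had not fallen in the eluates. Rab11a, with the lowest GC of the tested family (39.5%), went from 0.12 to 1.04 ± 0.085 (adjusted p = 9.06e-10, edgeR), and Rab18, at 42.2%, from -0.053 to 0.66 ± 0.064 (adjusted p = 2.25e-09, edgeR). The order by GC was inverted: rho with GC was -0.47, and the median changes of the 3 GC groups were 0.33, 0.24 and 0.053 from low to high. The 896 other genes of the same coding length also lay above 0 in this fit, with a median of 0.28 and 49.2% called higher, beside 0.25 and 46.3% for the 41 Rab genes of that length. Their rho with GC was -0.33. The median size of the paralog differences went from 0.66 to 0.13, and 5 of 9 changed sign, that of Rab11b over Rab11a reaching -0.68.

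Removing the length trend as well left 20 Rab genes higher and 1 lower, against 19.5% and 16.4% of all genes tested. The lower gene in both fits was Rab22a, an early endosome sorting gene at 55.0, 51.1 and 52.6 CPM in the pellets and 51.9, 49.8 and 52.6 CPM in the eluates, which overlapped as fitted (-0.041). Its value of -0.40 depends on the GC assigned to it. Its most abundant transcript by TPM has a 3' UTR of 35 nt and 57.8% GC, but most of its estimated counts fell on an isoform with a 3' UTR of 6224 nt and 47.6% GC. With GC averaged over isoforms by their counts, an alternative chosen after seeing the data, Rab22a was at 0.13 and not called, and 21 Rab genes were higher and 0 lower. Among all genes tested, that fit called 22.3% higher and 18.8% lower, and at an unadjusted p under 0.05 it had 24 Rab genes higher and 0 lower.

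**Figure D5:**
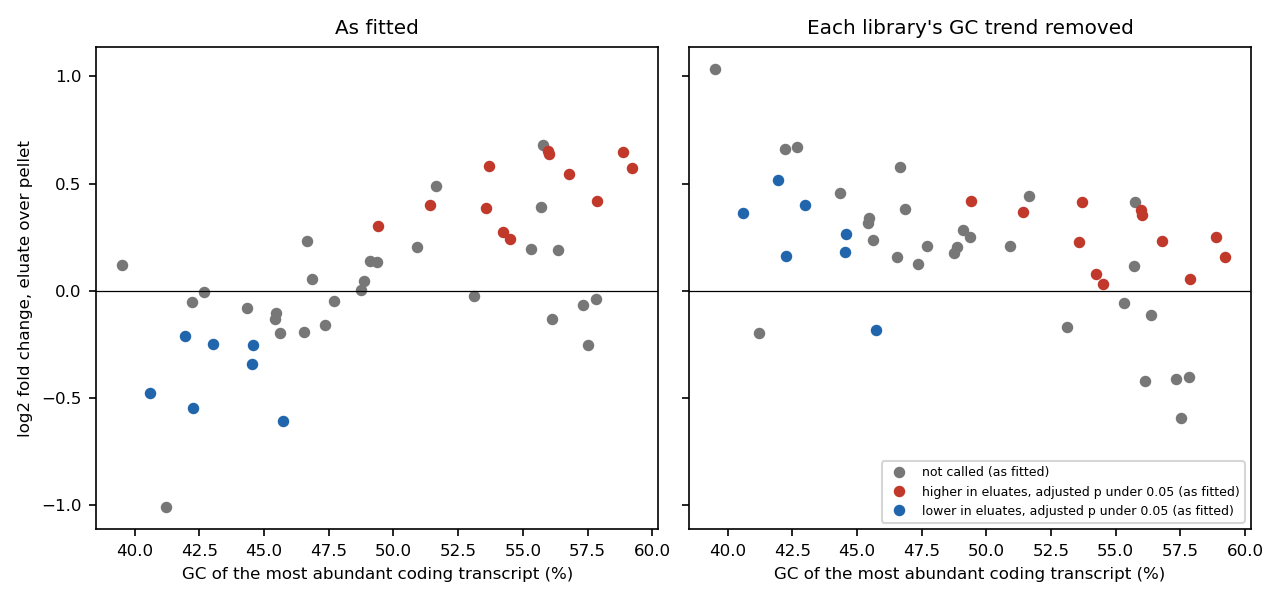
Log2 fold change of eluate over pellet (y axis) against transcript GC (x axis) for the 47 tested Rab genes, as fitted (left) and after removal of each library's GC trend (right), coloured in both panels by the call as fitted (red higher, blue lower, grey not called). On the left the points rise with GC (rho 0.66), and on the right they fall (rho -0.47), with Rab11a highest at 1.04 and 39.5% GC.

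Isoforms with long and short 3' UTRs were then compared within a gene for the 3 Rab genes, chosen after seeing the data, whose expressed isoforms differ at least 2-fold in 3' UTR length. The share of Rab22a counts on its long isoform was 89.4%, 93.6% and 89.8% in the pellets and 86.9%, 88.4% and 87.8% in the eluates. All eluates were below all pellets, by a few percentage points (exact permutation p = 0.1, the smallest possible with n = 3 per group; 0.3 adjusted over the 3 genes). For Rab18 the share on the isoform with a 3' UTR of 5774 nt was 63.8% ± 1.09 (SD, n = 3) in pellets and 63.5% ± 2.32 in eluates (exact permutation p = 0.9). For Rab11b, where that 3' UTR has 5184 nt, it was 33.2% ± 3.95 (SD, n = 3) and 33.5% ± 0.902 (exact permutation p = 0.9). These shares are the authors' Salmon estimates, since a read from a shared stretch fits both isoforms.

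The proteins that act on Rab GTPases are mostly encoded by longer messages. Their counts below are to be read against the 24.5% higher and 28.2% lower among all genes tested, and those with the GC trend removed against 22.1% and 18.7%. Of 8 genes that prenylate Rab proteins or deliver them to and take them from membranes, 2 rose and 4 fell, with a median of -0.29. Gdi2, a GDP dissociation inhibitor, fell from 483 to 297 CPM (-0.70 ± 0.068, adjusted p = 7.40e-07, edgeR), and Rabac1, a prenylated Rab acceptor, rose from 104 to 155 CPM (0.57 ± 0.075, adjusted p = 1.31e-05, edgeR). Of 49 exchange factor genes, 18 rose and 13 fell (median 0.17), and with the GC trend removed 14 were higher and 10 lower. The smallest p in each direction were those of the TRAPP subunit gene Trappc6a (0.89 ± 0.10) and of Dennd4c (-1.49 ± 0.12). Trappc1, the most abundant of them, rose by 0.45 ± 0.092.

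Of 37 genes for GTPase-activating proteins, 11 rose and 11 fell (median 0.0019), with Tbc1d10b at 0.50 ± 0.089 and Rabgap1 at -0.90 ± 0.097, while the most abundant, Grtp1, was not called (0.15 ± 0.082). With the GC trend removed, 2 were higher and 10 lower (median -0.17). Effectors are the proteins that bind active Rab GTPases, and 10 of 36 rose and 18 fell (median -0.46). Among them Golgb1, the golgin giantin, was at -1.51 ± 0.14, the vesicle tether gene Uso1 at -0.86 ± 0.096 and Rabep2, a Rab5 effector gene, at 0.56 ± 0.12. With the GC trend removed, 0 effector genes were higher and 15 lower with edgeR, and 2 were higher at an unadjusted p under 0.05. Over all coding genes tested, the change in that fit had a rho of -0.62 with coding length. With length removed as well, 5 effector genes were higher and 10 lower, against 19.5% and 16.4% of all genes tested. For GTPase-activating proteins these counts were 7 and 8.

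Of 60 tested genes for other small GTPases, with a median coding length of 580 nt, 20 rose and 11 fell (median 0.15). Arl2 rose by 0.83 ± 0.090, Arl5b fell by 0.77 (SE 0.096), and Ran, the nuclear transport GTPase, rose from 1275 to 1556 CPM (0.29 ± 0.062). The transcript GC of Arl2 was 59.1% and that of Arl5b 39.8%. With the GC trend removed, 29 of these genes were higher and 2 lower, and their median was 0.21, beside 0.23 for the Rab genes. Arl5b then stood at 0.12 and was not called (adjusted p = 0.301, edgeR).

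The authors' deposited table, which lists genes with an adjusted p under 0.05, holds 10 Rab genes, 7 higher and 3 lower, and all 10 were called in the same direction here. The rest of the 19 Rab genes called here were not found in it, Rab33b with the lowest called change among them. In the authors' deposited table Rab5a was lowest at -0.48, followed by Rab10 at -0.29 and Rab1a at -0.21, and Rab34 and Rab1b were highest, both at 0.61. In 7 of the 47 tested genes at least 10% of the 31-base subsequences occur in another gene, Rab4b and Rab43 (77.0%) above all, and reads may be misassigned there. Among the other 40 genes, 10 were called higher and 7 lower.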

How the data were processed

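Poly(A) RNA of E14 cells was sequenced in 6 libraries, 3 cushion pellets and 3 resin eluates, grouped by their titles. The submitters' processing notes name genome build GRCm39 and the tools Salmon 1.10.3, STAR 2.7.11b, cutadapt 4.7 and DESeq2 1.44.0, without their roles. Per the file headers, the authors deposited Salmon output with an estimated count, a TPM value and lengths per transcript. Their deposited table of the comparison gives, per gene, a mean normalized signal, a log2 fold change and its error, a test score, and raw and adjusted p-values. Tool settings and the annotation release: not given in the sources used here.

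Of 84226 transcripts, 76858 had an identifier in GENCODE mouse release 21 (GRCm38, so no coordinates are printed). The rest held 1.63% to 2.35% of a library's counts. Estimated counts were summed per gene and rounded. The test was that of edgeR 4.0.16 in R 4.3.3 (robust quasi-likelihood fit, TMM factors, default filter, Benjamini-Hochberg). The SE is the absolute change over the square root of F. CPM values are TMM-scaled. GC and lengths are those of a gene's coding transcript with the highest mean TPM. Trends were removed with splines of 5 degrees of freedom in GC, or GC and length. DESeq2 1.42.0 and limma 3.58.1, on log2(TPM + 1) and log2(TPM + 0.1), were alternatives. Exact permutation tests and figures used Python 3.11.15, scipy 1.17.1 and matplotlib 3.10.9. The main fit and the fit with the GC trend removed were also run on simulated counts, with an outcome not given here. The simulated trend was linear in GC and there was none with length, so the fits with length removed were not covered.

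Rab genes named are the 6 highest and 6 lowest changes at a mean of 10 CPM or more, the 5 most abundant by TPM, and all paralogs compared (same number, mean of at least 5 CPM). In other lists they are the smallest p in each direction and the most abundant. The members and lists were chosen with earlier results of these data known.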

Additional observations from a re-analysis of the deposited data

How the results depend on the processing

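Values are given for the Rab genes, the lists and the Rab-related genes named above, with the main value first and changes on the log2 scale. With DESeq2's size factors (RLE), with no filter on low counts and with an offset for effective length, all 42 named genes kept their direction and their side of the threshold; with DESeq2's own test 40 did, and 2 were no longer called. Where a value moved, the cause was not tested, except that removing a GC trend subtracts by construction what follows GC.

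Removing the trend with GC turned 12 higher and 7 lower Rab genes into 21 and 1. Removing GC and length gave 20 and 1, and the same with the replicate block 19 and 1. With read-weighted GC, chosen after seeing the data, there were 21 and 0, and with read-weighted GC and length 20 and 0 (edgeR; 24 and 0, and 21 and 0, at an unadjusted p under 0.05). Over all genes the 3736 lower calls became 2476, 2168, 2152, 2487 and 2103 in that order. limma on log2(TPM + 1) or log2(TPM + 0.1) called 7 Rab genes higher in each, and 1960 and 1949 of all genes against 3241.

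In the order GC, GC and length, these with the replicate block, read-weighted GC, read-weighted GC and length, the Rab median of 0.04 became 0.23, 0.18, 0.18, 0.22 and 0.18. The rank correlation of change with GC (0.66) became -0.47, -0.50, -0.49, -0.46 and -0.41, and that with 3' UTR length (-0.27) became 0.15, 0.51, 0.51, 0.12 and 0.36. The GC correlation was 0.80 with the strict filter, 0.80 over genes at a mean of 5 CPM or more, 0.78 over coding lengths of 570 to 720 bases, 0.56 for the libraries numbered 1 alone and 0.49 for those numbered 2. The 3' UTR correlation was -0.14 for those numbered 2. With the offset for effective length the Rab median was 0.13, beside 0.00078 over all genes tested. That fit called 13 Rab genes higher and 7 lower, and its GC correlation was 0.59.

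In the same order of 5, the changes that turned direction were as follows. Rab5a was at 0.16, 0.073, 0.072, 0.16 and 0.058, Rab8b at 0.36, 0.46, 0.47, 0.36 and 0.47, and Rab10 at 0.18, 0.18, 0.18, 0.18 and 0.17. Rab6a was at 0.27, 0.24, 0.24, 0.28 and 0.24, Rab14 at 0.40, 0.36, 0.36, 0.40 and 0.35, and Rab1a at 0.52, 0.46, 0.46, 0.52 and 0.44. Rab18 was at 0.66, 0.37, 0.37, 0.75 and 0.84, Rab2a at 0.46, 0.35, 0.35, 0.45 and 0.33, and Arl5b at 0.12, 0.37, 0.37, 0.13 and 0.39. With length included (GC and length, the same with the block, read-weighted), Rab4b was at -0.028, -0.029 and -0.044, Rab5c at -0.033, -0.034 and -0.058, Rabac1 at -0.080, -0.081 and -0.091, and Rab24 at -0.14, -0.14 and -0.16. Grtp1 was at -0.26 in the first 2 of these and at -0.097 with GC alone removed. Rab22a was at 0.13 with read-weighted GC and at 0.40 with read-weighted GC and length.

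Of the lists, cycle regulators (2 higher, 4 lower) had 1 higher with DESeq2, effective length, both TPM fits and each GC-corrected fit, and 1 lower with GC removed, 1 with read-weighted GC and 2 with read-weighted GC and length. GEFs (18 and 13) had 10 and 10 higher in the TPM fits, and 5 lower in each of the 3 fits with length removed. GAPs (11 and 11) had 7 higher with DESeq2, 2 with GC removed, 7 with GC and length, 7 with the block added, 2 with read-weighted GC and 3 in each TPM fit, and 4 lower with read-weighted GC and length. Effectors (10 and 18) had 6 higher with DESeq2, 0 with GC removed and 0 with read-weighted GC (edgeR; 2 and 1 at an unadjusted p under 0.05), 5 in each of the 3 fits with length and 3 in each TPM fit, and 10 lower in each fit with length. Other small GTPases (20 and 11) had 12 higher in each TPM fit. They had 2 lower with GC removed, 6 with GC and length, 6 with the block added, 6 with effective length, 7 in each TPM fit, 2 with read-weighted GC and 5 with read-weighted GC and length.

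Leaving out each library in turn gave 10 to 15 Rab genes higher and 4 to 9 lower, the 4 without eluate 1. Over all genes it gave 2615 to 3722 higher and 3224 to 4039 lower. The Rab median ran from -0.02 to 0.09, the GC correlation from 0.59 to 0.73, the 3' UTR correlation from -0.35 to -0.20 and the change of the summed Rab level from 0.04 to 0.08. The lists ran from 1 to 2 higher and 4 to 4 lower (cycle regulators), 15 to 20 and 12 to 16 (GEFs), 6 to 11 and 10 to 12 (GAPs), 5 to 10 and 17 to 18 (effectors), and 16 to 22 and 7 to 11 (other small GTPases). Of the pairs, Rab11b over Rab11a ran from 0.46 to 0.59, Rab1b over Rab1a from 0.79 to 1.01, Rab2b over Rab2a from -0.013 to 0.29, Rab4b over Rab4a from -0.053 to 0.040, Rab5b over Rab5a from 0.60 to 0.80, Rab5c over Rab5a from 0.72 to 0.87, Rab5c over Rab5b from 0.07 to 0.12, Rab6b over Rab6a from 0.52 to 0.79 and Rab8b over Rab8a from -0.90 to -0.69.

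The labels do not say that a replicate number marks a shared pellet, and same-numbered libraries did not deviate together throughout (correlations of 0.07, 0.15 and -0.01), so the numbers were not taken as pairs. With the replicate number as a block, 12 Rab genes were higher and 7 lower, all genes had 3306 and 3770, the Rab median was 0.04, the GC correlation 0.65 and the 3' UTR correlation -0.28, and all 42 named genes kept their direction and call.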
